A study of Mus musculus with 4 samples.

Results

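The Hlf+ Adgrl4+ cells are fetal liver cells in which at least 1 unique molecular identifier (UMI, a tag that counts an original RNA molecule once) of Hlf and at least 1 of Adgrl4 were read, with 0 UMIs of Rag1. A cell was kept when 500 or more genes were read in it and mitochondrial transcripts made up no more than 10% of its UMIs. The rule selected 578 of 22343 kept fetal liver cells, 92 at embryonic day E14.5 and 486 at E13.5, out of 31153 kept cells in the 4 libraries of the series. The study followed the origin of lymphoid tissue inducer cells, fetal innate lymphocytes that help to start lymph nodes, in C57BL/6J mouse embryos. The libraries come from fetal liver and from the embryonic periphery at E14.5 and E13.5, and no group carries a treatment or a mutation. Live CD45+ F4/80- IL7Rα+ cells were sorted from material enriched with CD45 magnetic beads, so every cell had passed a gate on the IL-7 receptor protein. Whether embryos were pooled is not given in the labels. With 1 library per stage and tissue there is no replicate check, no test was made, and the stage cannot be told apart from the library.

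Haematopoietic stem cells leave the vessel wall of the embryo, settle in the fetal liver and expand there before they reach the bone marrow. Hlf, hepatic leukemia factor, is a transcription factor of the PAR bZIP family whose expression marks haematopoietic stem cells and the earliest progenitors in mice. Adgrl4 is an adhesion G-protein-coupled receptor best known from endothelial cells. As progenitors take up the lymphoid programme they gain the cytokine receptors Flt3 and Il7r and then the recombinase genes Rag1 and Rag2, while Mpo, myeloperoxidase, and the receptor gene Csf1r accompany the myeloid programme.

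The promoters of both selecting genes are printed because reads of these genes define the cells. Each run covers the 250 bases before the transcription start in the RefSeq table for GRCm38.p6. The Hlf promoter lies at chr11:90390918-90391167 on the minus strand and the Adgrl4 promoter at chr3:151437632-151437881 on the plus strand. Capitals mark the ETS core CCGGAA and the cyclic AMP response element TGACGTCA, searched on both strands and without overlap between the motifs.
Hlf: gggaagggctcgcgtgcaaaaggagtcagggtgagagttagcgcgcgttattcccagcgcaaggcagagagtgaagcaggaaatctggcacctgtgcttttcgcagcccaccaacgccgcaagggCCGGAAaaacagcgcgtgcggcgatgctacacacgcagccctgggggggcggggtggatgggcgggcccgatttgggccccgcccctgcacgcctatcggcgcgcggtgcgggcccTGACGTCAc
Adgrl4: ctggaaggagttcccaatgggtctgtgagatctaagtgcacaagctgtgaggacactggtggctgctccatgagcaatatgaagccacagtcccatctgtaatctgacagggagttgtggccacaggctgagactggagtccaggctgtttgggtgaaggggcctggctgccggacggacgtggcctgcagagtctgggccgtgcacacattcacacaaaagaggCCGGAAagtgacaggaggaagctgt
Each promoter holds 1 ETS core, 120 bases before the start in Hlf and 20 bases before it in Adgrl4. The Hlf promoter also holds 1 cyclic AMP response element, 2 bases before the start. Among 32851 promoters of this length, 12.0% hold CCGGAA and 1.55% hold TGACGTCA. Neither promoter holds the PAR bZIP site TTACGTAA, which is in 0.113% of promoters, or the E-box CACGTG, which is in 6.02%. The G and C content of the run is 67.2% for Hlf and 56.8% for Adgrl4. In the GENCODE M21 annotation on GRCm38, Hlf spans 90336536 to 90390895 on chromosome 11, Adgrl4 spans 151437887 to 151545086 on chromosome 3 and Rag1 spans 101638282 to 101649501 on chromosome 2, all as protein-coding genes.

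The fetal liver libraries hold 208229937 UMIs at E14.5 and 212034840 at E13.5. The Hlf+ Adgrl4+ cells were deeper than the rest, with medians of 23573 UMIs at E14.5 and 22330 at E13.5, against 16166 and 18522 UMIs at the same stages in all other kept cells. Their median mitochondrial share was 3.82% at E14.5 and 4.89% at E13.5. The libraries share 27 kept barcodes, none of them from a Hlf+ Adgrl4+ cell. Scrublet marked 8 of the 92 cells (8.70%) at E14.5 and 41 of the 486 (8.44%) at E13.5 as doublets, against 7.43% and 3.93% of all kept cells. The rule keeps them. For genes named by their fold, the value without them is given where it moved by over 1.5 times or crossed the fold limit, which was so for 22 of 110 folds. B lineage cells, which should not express the selecting genes, served as a gauge of background reads. This set was not cleared of Hlf+ Adgrl4+ cells. Whether its reads of the selecting genes came from free RNA, doublets or the cells themselves was not tested. Among cells with at least 2 UMIs of Cd79a and 1 of Vpreb3, 1.64% at E14.5 and 3.51% at E13.5 had a Hlf UMI, and 6.77% and 9.61% had an Adgrl4 UMI, at medians of 16822.5 and 14190 UMIs.

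The Hlf+ Adgrl4+ cells made up 0.786% of kept cells at E14.5 (92 of 11702, 95% Clopper-Pearson interval 0.634 to 0.963%) and 4.57% at E13.5 (486 of 10641, interval 4.18 to 4.98%). The intervals do not overlap, and they cover counting error only. After each cell was thinned to 10000 UMIs, which left out 4 of these cells at E14.5 and 17 at E13.5, 27 of 9206 cells (0.293%) at E14.5 and 268 of 9330 (2.87%) at E13.5 passed the rule. The lower share at E14.5 accompanied a library in which cells of the B lineage set made up 43.8% of kept cells, against 5.08% at E13.5, and their part in the difference was not tested. Hlf was read in 3.30% of kept cells at E14.5 and 9.04% at E13.5, and Adgrl4 in 12.5% and 25.2% at the same stages. Before the condition on Rag1, 108 cells at E14.5 and 515 at E13.5 had both, where the product of the shares gives 48.4 and 242 cells. Both genes define the cells, and the product pools kept cells of all depths and types. The excess over it is therefore not read as a link between the genes, which was not tested. In the periphery the rule found 2 of 4505 kept cells at E14.5 and 0 of 4305 at E13.5, which allows up to 0.0857%, but the periphery was prepared with kit version 2 and the fetal liver with version 3, so tissue and kit cannot be told apart.

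Most members stood close to the threshold at E14.5. There, 69 of 92 cells (75.0%) had 1 Hlf UMI and 38 (41.3%) had 1 UMI of each selecting gene, against 233 (47.9%) and 61 (12.6%) of 486 cells at E13.5. The highest cell held 9 Hlf UMIs at E14.5 and 12 at E13.5. Just outside the rule lay 235 cells at E14.5 and 430 at E13.5 with Hlf but no Adgrl4 UMI, 1001 and 1907 with Adgrl4 but no Hlf UMI, and 16 and 29 with both and a Rag1 UMI.

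The label of stem-like cells held in part. The shares given here were not thinned, and the other kept cells were less deep. Of the stem cell markers, Cd34, a sialomucin of early progenitors, was read in 97.8% of the cells at E14.5 and 99.6% at E13.5. Its shares in all other kept cells were 48.5% and 88.6%. Hoxa9, a homeobox factor of early progenitors, was read in 78.3% of the Hlf+ Adgrl4+ cells at E14.5 and 80.5% at E13.5. Kit, the stem cell factor receptor, was read in 60.9% of the cells at E14.5 and 77.0% at E13.5. Genes that mark long-term stem cells were rare. Mecom, a transcription factor of stem cells, was read in 3.26% of the cells at E14.5 and 8.64% at E13.5, against 0.345% and 0.886% of all other kept cells. Procr, the protein C receptor, was read in 4.35% of the Hlf+ Adgrl4+ cells at E14.5 and 1.23% at E13.5, Esam, a junction adhesion molecule, in 2.17% and 2.26%, and Slamf1, the gene of CD150, in 1.09% and 0.823%. The shares of Procr, Esam and Slamf1 in all other kept cells are not given here. Cd48, whose protein is absent from long-term stem cells in adult mice, was read in 90.2% of the cells at E14.5 and 88.3% at E13.5. Its shares in all other kept cells were 77.1% and 69.0%. Since these markers of long-term stem cells, Mecom, Procr, Esam and Slamf1, were at 0 UMIs in most cells, the cells are called by their rule, Hlf+ Adgrl4+ cells.

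Shares at equal depth showed progenitor, lymphoid and myeloid transcripts side by side. After thinning to 10000 UMIs, Flt3 was read in 83% of 88 cells at E14.5 and 87.6% of 469 at E13.5, and Mpo in 87.5% and 88.1%. The reading of Mpo is limited, since it was also read in 20.4% of the thinned B lineage cells at E14.5 and 44.7% at E13.5. Whether those reads came from free RNA, doublets or the cells themselves was not tested. Il7r was read in 64.8% of the thinned cells at E14.5 (interval 53.9 to 74.7%) and in 49.9% at E13.5 (45.3 to 54.5%), although all cells had been sorted on its protein. Its share in all other kept cells was 75.9% at E14.5 and 65.9% at E13.5. Flt3, Il7r and Mpo were read together in 41 of 88 cells (46.6%, interval 35.9 to 57.5%) at E14.5 and in 181 of 469 (38.6%, interval 34.2 to 43.2%) at E13.5. Transcripts used to mark lymphoid and myeloid priming thus occurred in the same cells, with doublets not removed. Mpo and Il7r were read together in 56.8% of the thinned cells at E14.5 and 43.5% at E13.5. The product of their shares gives 56.7% and 43.9%, so they were read together about as often as separate detection gives. Joint shares in the other sets are not given. Hoxa9 was read in 59.1% of the thinned cells at E14.5 and 63.8% at E13.5, against 30.3% and 28.1% of Flt3+ Cd34+ progenitors. This comparison set, 3460 cells at E14.5 and 6846 at E13.5, holds cells with a UMI of Flt3 and of Cd34 and none of Hlf or Rag1.

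**Figure D1:**
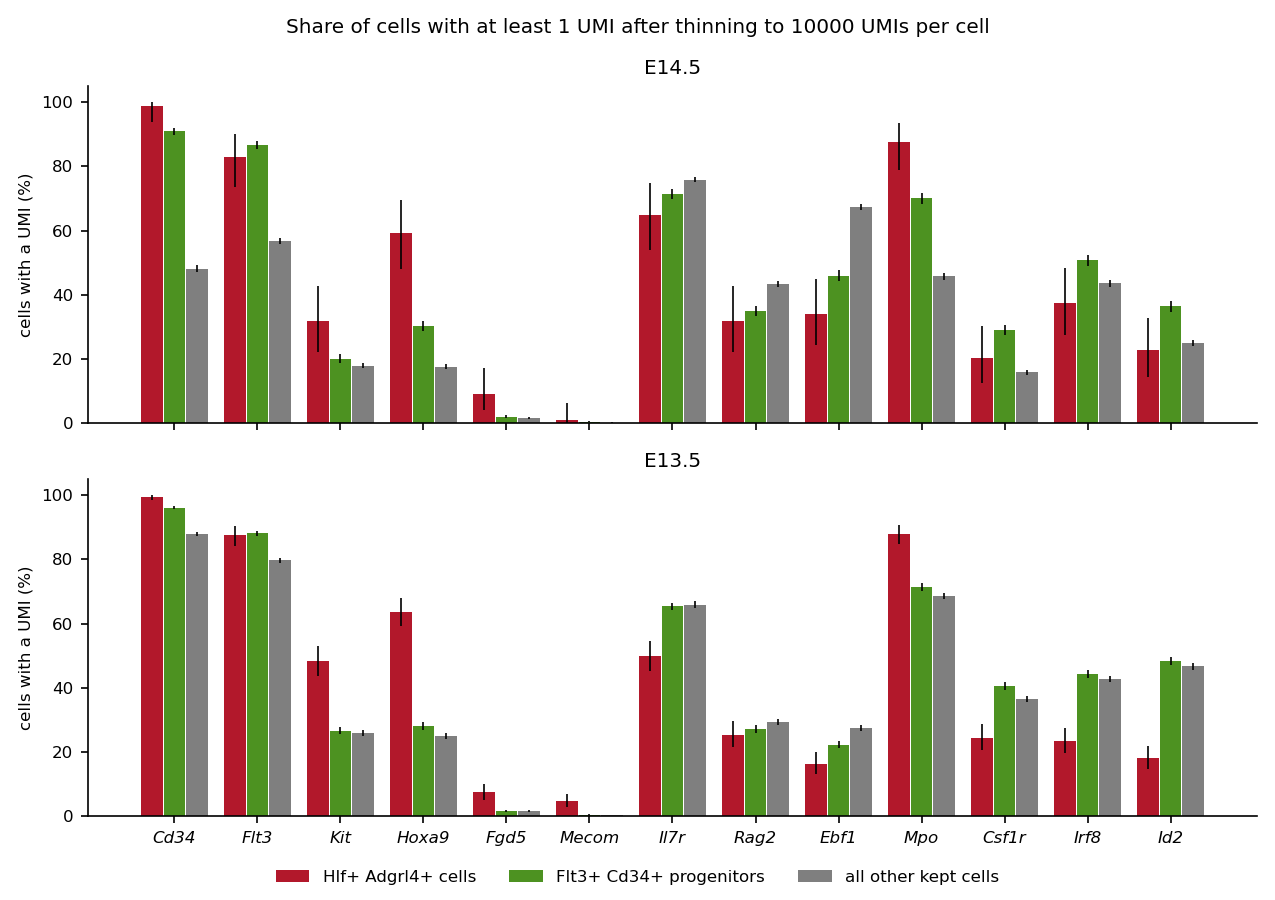
Share of cells with at least 1 UMI of each gene (vertical axis, percent) after thinning to 10000 UMIs, at E14.5 above and E13.5 below; bars are Hlf+ Adgrl4+ cells, Flt3+ Cd34+ progenitors and all other kept cells, and lines are 95% Clopper-Pearson intervals. Hoxa9 stands at 59.1% and 63.8% in the Hlf+ Adgrl4+ cells, while Id2 stands at 22.7% and 18.1%, below the 36.4% and 48.5% of Flt3+ Cd34+ progenitors, which were themselves selected on Flt3 and Cd34.

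Levels were computed as CPM, the UMIs of a gene summed over the cells of a set and scaled to the summed UMIs of that set. Folds are log2 after 5 CPM was added to both sides, minus the median of all genes at 10 CPM or more on either side, so that the median over all measured genes is 0. A gene is called past the fold at 1 log2 unit or more. Against all other kept cells, 18 of 7542 genes measured in both libraries (0.239%) were higher past the fold at both stages and 52 (0.689%) were lower, with none past it in opposite directions. All other kept cells include the Flt3+ Cd34+ progenitors. The selecting genes themselves, which are left out of these counts, stood at 65.0 CPM (Hlf) and 104 CPM (Adgrl4) in the Hlf+ Adgrl4+ cells at E14.5 and at 102 and 201 CPM at E13.5.

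The gene with the highest fold was Ctla2a, which encodes a protein related to the propeptide of cysteine proteases. It stood at 146 CPM (95% Poisson interval 131 to 163) in the Hlf+ Adgrl4+ cells at E14.5, against 18.9 CPM in all other kept cells, a log2 fold of 2.62. At E13.5 it stood at 318 CPM (307 to 328) against 51.7 CPM, a log2 fold of 2.48. Its reads came from 72 of 92 cells at E14.5 and 453 of 486 at E13.5, with at most 5.71% in the highest cell. Its close copy Ctla2b makes the count uncertain where reads could be split between them. Car2, a carbonic anhydrase, stood at 112 CPM at E14.5 and 241 CPM at E13.5, against 36.1 and 57.4 CPM, with log2 folds of 1.47 and 1.95. Ddx4, an RNA helicase best known from germ cells, stood at 22.4 CPM at E14.5 and 33.5 CPM at E13.5, against 2.46 and 5.34 CPM, with log2 folds of 1.84 and 1.87. Car2 was read in 56 and Ddx4 in 27 of the 92 cells at E14.5, and in 397 and 214 of the 486 at E13.5. Slco3a1, an organic anion transporter, had log2 folds of 1.61 at E14.5 and 1.81 at E13.5, and Acot1, an acyl-CoA thioesterase with the close copy Acot2, had 1.42 and 1.79. Spns2, a transporter of sphingosine-1-phosphate, had log2 folds of 1.30 at E14.5 and 1.42 at E13.5. Gcnt2, a glycosyltransferase, had 1.31 and 1.19, and Afap1l1, an actin-associated protein, had 1.36 and 1.17. Calcrl, the calcitonin receptor-like receptor, had log2 folds of 1.13 at E14.5 and 1.27 at E13.5. Wfdc17, a secreted protein with a WAP domain, had 1.30 at E14.5 and 0.99 at E13.5, just below the limit (1.07 at E13.5 without marked doublets). Of the 15 genes with the highest folds, 9 had a promoter in the RefSeq table. Of these promoters 1 (Gcnt2) held CCGGAA, 1 (Ddx4) held CACGTG and none held TGACGTCA or TTACGTAA.

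**Figure D2:**
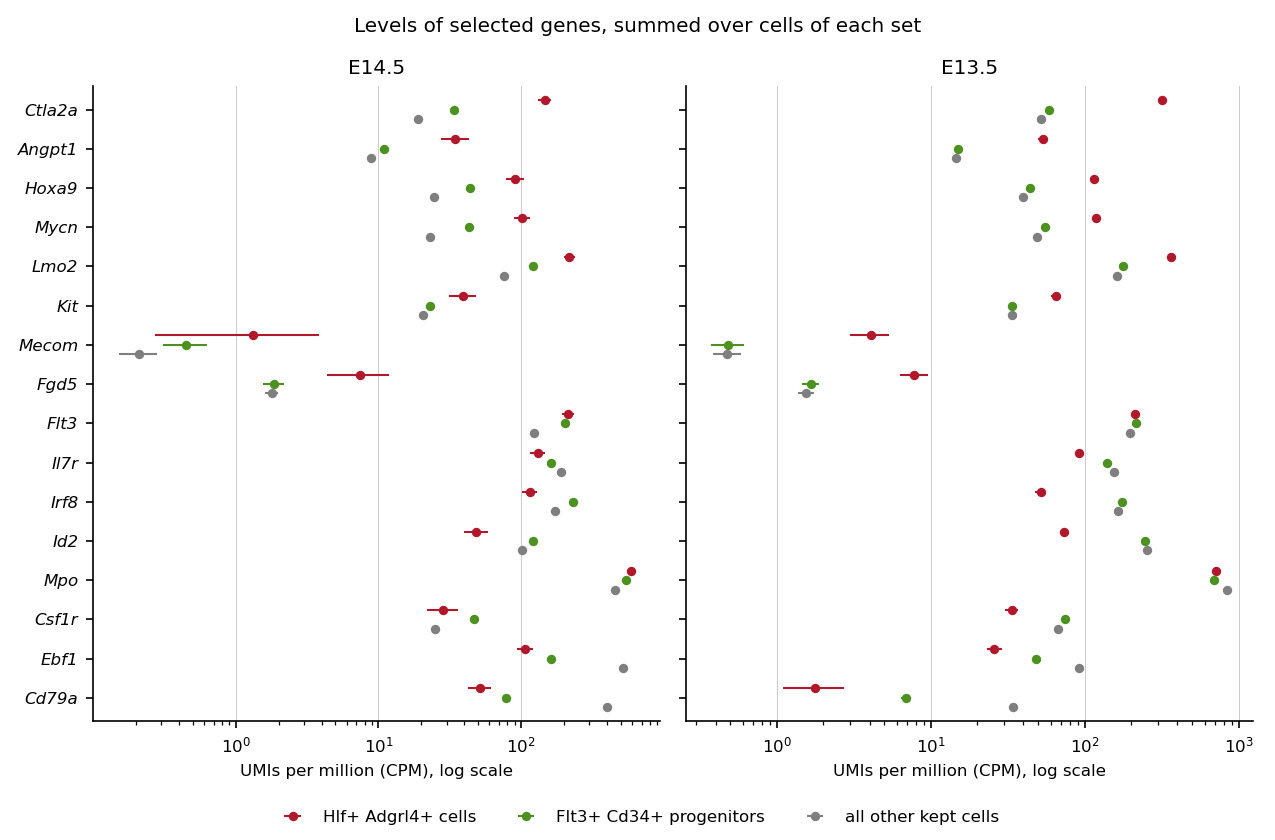
CPM (horizontal log axis) of selected genes at E14.5 (left) and E13.5 (right) in Hlf+ Adgrl4+ cells, Flt3+ Cd34+ progenitors and all other kept cells, of which the progenitors are a part; lines are exact 95% Poisson intervals. Ctla2a lies at 146 and 318 CPM in the Hlf+ Adgrl4+ cells, to the right of the other sets, and Cd79a at 51.4 and 1.78 CPM, to their left.

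Stem cell transcription factors were higher on balance, led by a few genes. Of 17 measured at E14.5, 3 were higher and 1 was lower past the fold, and of 17 at E13.5, 4 were higher and none lower, with medians of 0.51 and 0.59. Over all genes, 0.436% were higher and 2.0% lower at E14.5, and 0.475% were higher and 1.51% lower at E13.5. Hoxa9 stood at 90.9 CPM (78.9 to 104) at E14.5 and 114 CPM (108 to 120) at E13.5 in the Hlf+ Adgrl4+ cells, against 24.5 and 39.9 CPM in all other kept cells. Mycn, a MYC family factor, stood at 101 CPM at E14.5 and 118 CPM at E13.5, against 23.0 and 49.0 CPM. Lmo2, a LIM-domain adaptor of blood transcription complexes, stood at 218 CPM at E14.5 and 363 CPM at E13.5, against 75.4 and 161 CPM. The Hlf+ Adgrl4+ cells exceeded the other cells in all 3 genes at both stages, by log2 folds of 1.66 and 1.38 for Hoxa9, 1.89 and 1.16 for Mycn and 1.43 and 1.12 for Lmo2. Gfi1b, a repressor needed in erythroid and megakaryocytic development, had log2 folds of 0.79 at E14.5 and 1.04 at E13.5, and Hoxa7, a neighbour of Hoxa9, had 0.98 and 0.92. Meis1, the partner of HOXA proteins, had 0.45 and 0.37, short of the limit. Runx1, which is needed for stem cell emergence, had folds of -0.01 and 0.08. Gata2, a factor of stem cells and mast cells, stood at 16.7 CPM at E14.5 in the Hlf+ Adgrl4+ cells, against 50.7 CPM in the other cells, with folds of -1.40 at E14.5 and 0.04 at E13.5. Its 38 UMIs in the Hlf+ Adgrl4+ cells at E14.5 came from 16 of 92 cells, with 15 (39.5%) in the highest cell. At E14.5 mast cell and basophil genes summed to 388 CPM in the other cells, and at E13.5 to 85.6 CPM, and their part in the Gata2 values was not tested.

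Some factors gave few UMIs in the cells and fewer still elsewhere. Mecom stood at 1.32 CPM (0.272 to 3.85) at E14.5 and 4.07 CPM (3.0 to 5.39) at E13.5, against 0.210 and 0.475 CPM in all other kept cells. Nkx2-3, a homeobox factor, stood at 6.15 CPM at E14.5 and 5.17 CPM at E13.5, against 0.292 and 0.670 CPM. Myct1, a MYC target gene, stood at 3.95 CPM (1.81 to 7.50) at E14.5 and 5.34 CPM (4.10 to 6.83) at E13.5, against 0.0341 and 0.195 CPM. The Poisson intervals of the Hlf+ Adgrl4+ cells lay above the levels of the other cells for these genes, although none reached the minimum of 10 CPM that the counts of genes require.

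Among receptors and surface genes of stem cells, 3 of 14 measured at E14.5 and 3 of 13 at E13.5 were higher past the fold and none was lower, with medians of 0.38 and 0.55. Angpt1, the secreted ligand of the receptor Tek, stood at 34.7 CPM at E14.5 and 53.8 CPM at E13.5, against 8.88 and 14.7 CPM, with log2 folds of 1.48 and 1.55. Tek itself, an angiopoietin receptor of stem and endothelial cells, was at 0 UMIs at E14.5 and 1.53 CPM at E13.5. Kit stood at 39.1 CPM at E14.5 and 64.8 CPM at E13.5, against 20.5 and 33.7 CPM, with folds of 0.75 and 0.82 that did not pass the limit. Adgrg1, an adhesion receptor of stem cells, passed it at E13.5 with 240 CPM against 91.0 CPM (1.32) and not at E14.5 with 151 CPM against 90.0 CPM (0.68). Cd34 passed it at E14.5 with 557 CPM against 178 CPM (1.58) and not at E13.5 with 665 CPM against 466 CPM (0.48). Fgd5, a guanine nucleotide exchange factor that marks stem cells in adult mice, stood at 7.46 CPM at E14.5 and 7.80 CPM at E13.5, against 1.79 and 1.55 CPM, below the minimum of 10 CPM.

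Of the genes that endothelial and stem cells share, 2 of 7 measured at E14.5 and 2 of 8 at E13.5 were higher past the fold and none was lower, with a median of 0.59 at each stage. Emcn, a sialomucin of vessels and stem cells, stood at 13.2 CPM at E14.5 and 29.0 CPM at E13.5, against 2.80 and 5.03 CPM, with log2 folds of 1.18 and 1.73. Mmrn1, multimerin, stood at 6.58 CPM at E14.5 and 15.8 CPM at E13.5, against 5.25 and 2.56 CPM, with folds of 0.14 and 1.43. Egfl7, a secreted factor that hosts the microRNA miR-126, stood at 479 CPM at E14.5 and 521 CPM at E13.5, against 266 and 371 CPM, with folds of 0.80 and 0.46. The genes that define endothelium were near 0. The 10 of them summed to 2.63 CPM at E14.5 and 8.47 CPM at E13.5 in the Hlf+ Adgrl4+ cells, against 6.02 and 4.81 CPM in the other cells, and 6 of them at E14.5 and 4 at E13.5 had no UMI. Cdh5, the vascular cadherin, had no UMI at E14.5 and stood at 0.424 CPM at E13.5. Markers of macrophages and hepatocytes, which the gates on F4/80 and CD45 should remove, were also low. The 10 macrophage genes stood at 3.07 CPM at E14.5 and 1.53 CPM at E13.5 in sum. Pf4, a platelet chemokine, stood at 0.439 and 0.254 CPM, but the 15 megakaryocyte and platelet genes were not low as a list. They summed to 31.6 CPM at E14.5 and 65.0 CPM at E13.5, against 26.1 and 60.2 CPM in the other cells. The 1 gene of this list measured at E14.5 was higher past the fold (1.08). Of 3 measured at E13.5, 1 was higher and 1 lower. The 9 hepatocyte genes summed to 15.4 CPM at E14.5 and 20.3 CPM at E13.5, near the 17.6 and 18.2 CPM of the other cells, with albumin (Alb) at 0 UMIs.

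The globin gene Hbb-bt was among the genes higher at both stages, with 33 UMIs at E14.5 and 541 at E13.5 and log2 folds of 1.22 and 1.94 over all other kept cells. Its count is uncertain because of the near-identical copy Hbb-bs, which stood at 1.32 CPM at E14.5 and 0.254 CPM at E13.5 in the same cells. Of the 12 erythroid genes 3 were measured at each stage, and 2 of them, Hbb-bt and Car2, were higher past the fold. Tfrc, the transferrin receptor, had folds of -0.79 at E14.5 and -0.89 at E13.5. The list summed to 160 CPM at E14.5 and 304 CPM at E13.5, against 101 CPM in the other cells at each stage. The erythroid genes below the minimum level were at or near 0, with at most 2.63 CPM, and 7 genes of the list at E14.5 and 5 at E13.5 had no UMI. Alas2, the erythroid aminolevulinate synthase, had no UMI at either stage, and Klf1, the erythroid master factor, had none at E14.5 and 0.763 CPM at E13.5.

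**Figure D3:**
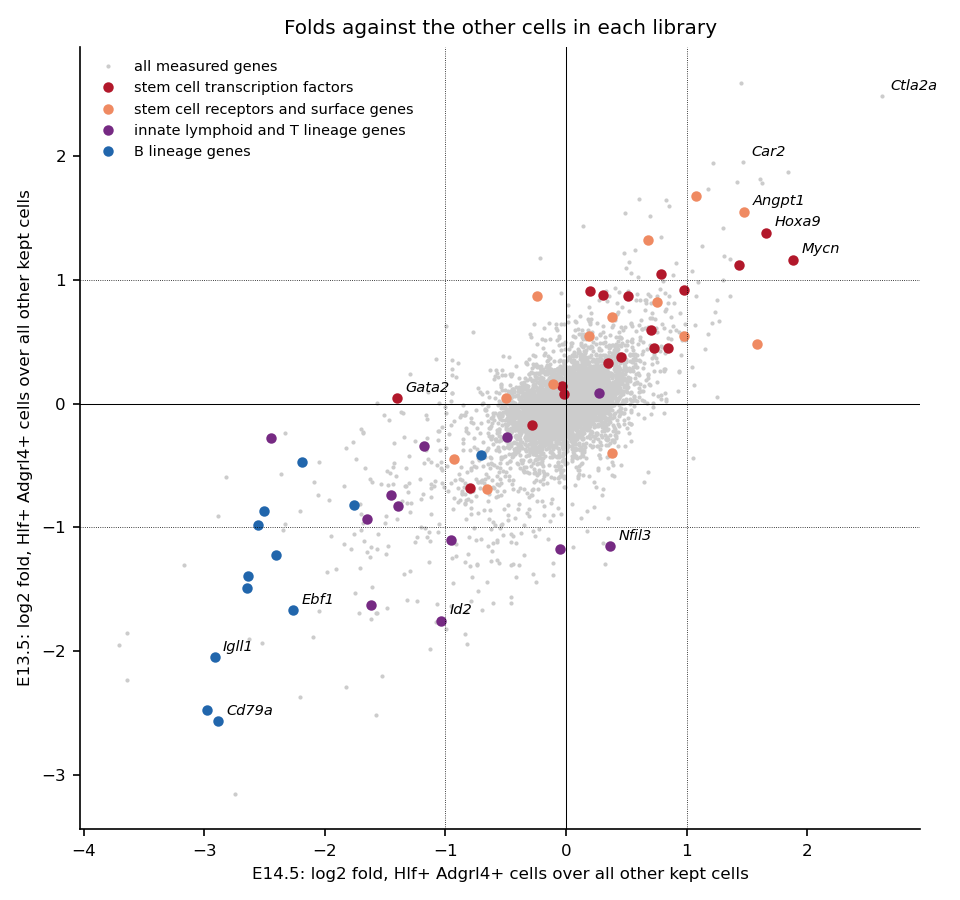
Log2 fold of Hlf+ Adgrl4+ cells over all other kept cells at E14.5 (horizontal) and E13.5 (vertical) for every measured gene (grey), with genes of 4 lists in colour and dotted lines at 1 log2 unit. Ctla2a lies at 2.62 and 2.48 and Cd79a at -2.89 and -2.57, and Nfil3 lies at 0.36 and -1.15.

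Genes of the committed lineages were lower. Of the B lineage genes, 11 of 12 measured at E14.5 and 5 of 7 at E13.5 were lower past the fold, with medians of -2.53 and -1.67. Cd79a, a signalling chain of the B cell receptor, stood at 51.4 CPM (42.5 to 61.6) at E14.5 and 1.78 CPM (1.10 to 2.72) at E13.5 in the Hlf+ Adgrl4+ cells, against 402 and 34.3 CPM in the other cells. Ebf1, the factor that starts the B programme, stood at 106 CPM at E14.5 and 25.9 CPM at E13.5, against 514 and 91.5 CPM. Vpreb3, a surrogate light chain partner, had log2 folds of -2.97 at E14.5 and -2.48 at E13.5. With marked doublets left out, the folds at E14.5 were -4.30 for Vpreb3 and -3.92 for Cd79a. The B lineage cells of the comparison were 43.8% of kept cells at E14.5 and 5.08% at E13.5, so the folds depend on the make-up of each library. They also depend on the rule, which asks for 0 UMIs of Rag1, while all other kept cells include Rag1+ cells. Lower levels of B lineage and lymphoid priming genes can thus be built in, in part, by the selection. The Hlf+ Adgrl4+ cells left out for a Rag1 UMI had 320 CPM of Cd79a at E14.5 and 30.0 CPM at E13.5.

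Innate lymphoid and T lineage genes were lower in 7 of 11 measured at E14.5 and 5 of 9 at E13.5, with none higher and medians of -1.18 and -1.10. Id2, an inhibitor of E proteins that innate lymphoid cells need, stood at 48.3 CPM at E14.5 and 73.4 CPM at E13.5, against 101 and 254 CPM. Tcf7, the factor TCF1 of innate lymphoid and T progenitors, stood at 12.3 CPM at E14.5 and 20.1 CPM at E13.5, against 46.6 and 71.2 CPM. At E14.5, 24 of its 28 UMIs (85.7%) came from 1 cell. Cd7, an immunoglobulin superfamily protein of lymphoid cells, had log2 folds of -1.72 at E14.5 and -1.69 at E13.5. Of the lymphoid priming genes, 4 of 19 measured at E14.5 and 5 of 19 at E13.5 were lower and none was higher, with medians of -0.31 and -0.58. The members of this list that were lower at both stages included Ly6d and Blnk, which are known from B lineage progenitors. Ly6d had log2 folds of -3.71 at E14.5 and -1.95 at E13.5. Ccr7, a chemokine receptor, had folds of -0.25 and -1.44. Flt3 stood at 213 CPM at E14.5 and 211 CPM at E13.5, against 123 and 197 CPM, with folds of 0.73 and 0.07. Il7r stood at 130 CPM at E14.5 and 91.4 CPM at E13.5, against 189 and 154 CPM, with folds of -0.56 and -0.75. Irf8, a factor of monocytes, dendritic and B cells, stood at 115 CPM at E14.5 and 51.8 CPM at E13.5, against 173 and 165 CPM, with folds of -0.61 and -1.61. Dntt, the terminal transferase, had no UMI in the Hlf+ Adgrl4+ cells.

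Myeloid priming genes did not move together. Of 13 measured at E14.5, 1 was higher and 5 were lower, and of 16 at E13.5, none was higher and 5 were lower, with medians of -0.28 and -0.48. The gene that was higher at E14.5 was Cd33, a sialic acid receptor of myeloid cells, with log2 folds of 1.25 at E14.5 and 0.05 at E13.5. Mpo stood at 590 CPM at E14.5 and 715 CPM at E13.5, against 458 and 835 CPM, with folds of 0.32 and -0.25. Elane, neutrophil elastase, had log2 folds of -3.64 at E14.5 and -2.24 at E13.5, S100a9, a calgranulin, had -2.74 and -3.15, and Stfa1, a cysteine protease inhibitor of a family of close copies, had -3.64 and -1.85. At E13.5 a single cell held 61 of 96 Elane UMIs (63.5%), 53 of 68 S100a9 UMIs (77.9%) and 242 of 307 Stfa1 UMIs (78.8%). With each gene's highest cell left out of every set, the fold at E13.5 was -2.91 for Elane, -3.84 for S100a9 and -3.36 for Stfa1. With marked doublets left out instead, it was -3.97 for S100a9 and -3.35 for Stfa1. Csf1r stood at 28.5 CPM at E14.5 and 33.6 CPM at E13.5, against 24.9 and 66.6 CPM, with folds of 0.13 and -0.92. Hdc, the histamine-forming enzyme of mast cells and basophils, had log2 folds of -2.21 at E14.5 (-2.94 without marked doublets) and -2.37 at E13.5. Arl5c, a small GTPase-like protein, had -2.52 at E14.5 (-3.13 without marked doublets) and -1.93 at E13.5, Jchain, the joining chain of antibodies, had -2.63 and -1.90, and Myl4, a myosin light chain, had -2.10 and -1.89.

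Cell cycle genes moved little. All 20 S phase genes lay below 0 at both stages, with medians of -0.29 at E14.5 and -0.21 at E13.5, and none passed the fold. Of 20 G2 and M phase genes, 15 lay above 0 at E14.5 and 14 at E13.5, with medians of 0.10 and 0.06. After thinning, Mki67, a proliferation marker, was read in 78.4% of the cells at E14.5 and 69.7% at E13.5, against 70.6% and 64.1% of all other kept cells. Quiescence genes had medians of -0.57 at E14.5 and -0.28 at E13.5, with 2 of 11 lower at E14.5 and 1 of 10 at E13.5. These were Cdkn2c, an inhibitor of cyclin-dependent kinases, and Foxo1, a forkhead factor, at E14.5, and Btg2, an antiproliferative gene, at E13.5. Foxo3, a forkhead factor of stem cell maintenance, stood at 19.8 CPM at E14.5 and 26.8 CPM at E13.5, against 10.2 and 12.7 CPM, with folds of 0.66 and 0.81. Fetal programme and imprinted genes had medians of 0.07 at E14.5 and 0.04 at E13.5, with Lin28b, an RNA-binding protein of fetal progenitors, at 25.0 CPM at E14.5 and 32.6 CPM at E13.5 against 25.7 and 33.6 CPM. Among homing receptors and integrins, 2 of 12 were lower at E14.5 and 3 of 12 at E13.5, with medians of -0.23 and -0.43. Itgb7, a gut-homing integrin chain, had log2 folds of -1.34 at E14.5 and -1.38 at E13.5, and Itga4, its partner chain, had -0.61 and -1.19. Cytokine receptors had a median of 0.12 at E14.5 and a median within 0.01 of 0 at E13.5, with 1 of 13 measured higher past the fold at each stage.

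**Figure D4:**
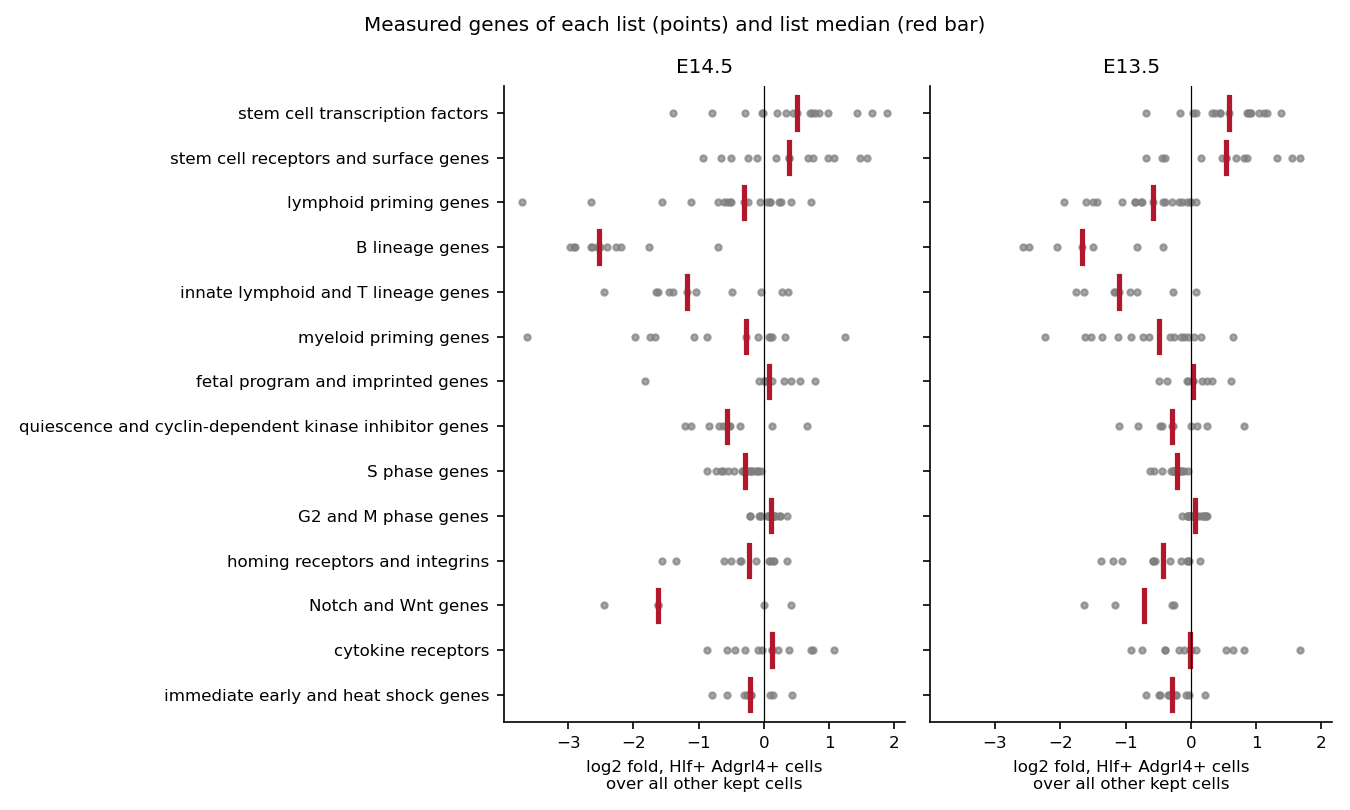
Log2 folds of Hlf+ Adgrl4+ cells over all other kept cells (horizontal axis) for the measured genes of each list (grey points) and the list median (red bar), at E14.5 (left) and E13.5 (right). The medians of stem cell transcription factors lie at 0.51 and 0.59 and those of B lineage genes at -2.53 and -1.67, while all 20 S phase genes lie below 0.

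The Flt3+ Cd34+ progenitors, a set of the same libraries with a median of 19925 UMIs at E14.5 and 19793.5 at E13.5, gave a closer comparison in which B lineage cells weigh less. Of 7535 genes measured in both libraries, 9 (0.119%) were higher and 18 (0.239%) were lower in the Hlf+ Adgrl4+ cells past the fold at both stages. Ctla2a again had the highest fold, with 33.7 CPM at E14.5 and 58.3 CPM at E13.5 in the progenitors and log2 folds of 1.95 and 2.32. Car2 had log2 folds of 1.54 at E14.5 and 2.04 at E13.5, Ddx4 1.41 and 1.80, and Slco3a1 1.32 and 1.74. Angpt1 had 1.29 at E14.5 and 1.54 at E13.5, Acot1 1.08 and 1.70, and Mycn 1.13 and 1.01. Hoxa9 had 0.96 and 1.26, and Spns2 0.97 and 1.39, each just under the limit at E14.5; without marked doublets Spns2 had 1.02 there. Stem cell transcription factors had medians of 0.44 at E14.5 and 0.80 at E13.5, with 1 of 17 and 4 of 17 higher, where 0.129% and 0.491% of all genes were higher.

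The 10 genes named as lower than in these progenitors were led by Ly86. Ly86, a partner of the receptor RP105, stood at 35.1 CPM at E14.5 and 23.1 CPM at E13.5 in the Hlf+ Adgrl4+ cells, against 108 and 104 CPM, with log2 folds of -1.51 and -1.98. Id2 had log2 folds of -1.27 at E14.5 and -1.72 at E13.5, and Tcf7 had -1.30 and -1.18. Cd74, the invariant chain of MHC class II, had -1.39 at E14.5 and -1.58 at E13.5, and Clec12a, a myeloid lectin receptor, had -1.32 and -1.39. Cd7 had -1.40 at E14.5 and -1.51 at E13.5, Cd28, a costimulatory receptor, had -1.82 and -1.15, and Gpr183, an oxysterol receptor, had -1.04 and -1.54. Gsn, the actin-severing protein gelsolin, had log2 folds of -1.10 at E14.5 and -1.55 at E13.5, and Bcl2, a survival factor, had -1.08 and -1.43. With marked doublets left out, the Tcf7 folds were -2.89 at E14.5 and -2.13 at E13.5, and the Id2 folds were -1.68 and -2.64. Without them Ly86 had -2.94 at E13.5, and Gpr183 had -0.88 at E14.5, short of the limit. Irf8 stood at 115 CPM at E14.5 and 51.8 CPM at E13.5 in the Hlf+ Adgrl4+ cells, against 230 and 174 CPM in the progenitors, and Flt3, which selected the progenitors, stood at 213 and 211 CPM, against 203 and 217 CPM. Innate lymphoid and T lineage genes had medians of -0.75 at E14.5 and -0.96 at E13.5, with 3 of 8 and 4 of 9 lower, where 0.401% and 0.943% of all genes were lower. Myeloid priming genes had medians of -0.32 at E14.5 and -0.05 at E13.5, with 2 of 12 and 2 of 13 lower and none higher. B lineage genes had medians of -0.33 and -0.48, with none of 11 measured past the fold at E14.5 and none of 3 at E13.5. Lymphoid priming genes had medians of -0.34 at E14.5 and -0.43 at E13.5, and all 20 S phase genes again lay below 0 at both stages.

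Within Adgrl4+ Rag1- cells, levels differed with the number of Hlf UMIs in the cell. At E13.5 the cells with 0, 1, 2 and 3 or more Hlf UMIs numbered 1907, 233, 90 and 163, and their median depths lay between 21424 and 22416 UMIs. Mecom stood at 1.10, 1.44, 3.73 and 7.83 CPM in these 4 sets of the E13.5 library, and Kit at 43.8, 56.5, 70.0 and 73.4 CPM. Both genes were higher with each step in Hlf UMIs at E13.5, as were Meis1 and Mycn. The Poisson intervals of Kit overlapped between 1 and 2 and between 2 and 3 or more UMIs, and those of Mecom between all neighbouring steps. Not every stem cell gene had this order, with Hoxa9 at 68.0, 107, 103 and 129 CPM and Hoxa7 at 77.6, 104, 99.4 and 98.3 CPM. Cd48 stood at 109, 123, 159 and 143 CPM. The other selecting gene, Adgrl4, stood at 99.4, 157, 227 and 247 CPM. Since both genes belong to the rule and every cell here was chosen for an Adgrl4 UMI, this order is not a separate result. Irf8 stood at 113, 70.2, 45.8 and 29.8 CPM, Il7r at 130, 107, 80.3 and 76.3 CPM and Mpo at 1072, 808, 693 and 602 CPM, each lower with every step, with overlapping intervals for Il7r between 2 and 3 or more UMIs. Flt3 stood at 219, 206, 216 and 217 CPM and showed no such order. At E14.5 the sets held 1001, 69, 7 and 16 cells, so that the intervals at 2 and 3 or more UMIs were wide. Mecom stood there at 0.703 CPM with 0 Hlf UMIs, had no UMI in the cells with 1 and 2, and stood at 7.48 CPM (3 UMIs, interval 1.54 to 21.9) with 3 or more, so it did not follow the E13.5 order at each step. Kit stood at 28.4, 36.3, 45.3 and 47.4 CPM and Il7r at 157, 139, 121 and 99.8 CPM. Irf8 stood at 150, 122, 111 and 87.3 CPM and Mpo at 824, 661, 710 and 232 CPM.

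**Figure D5:**
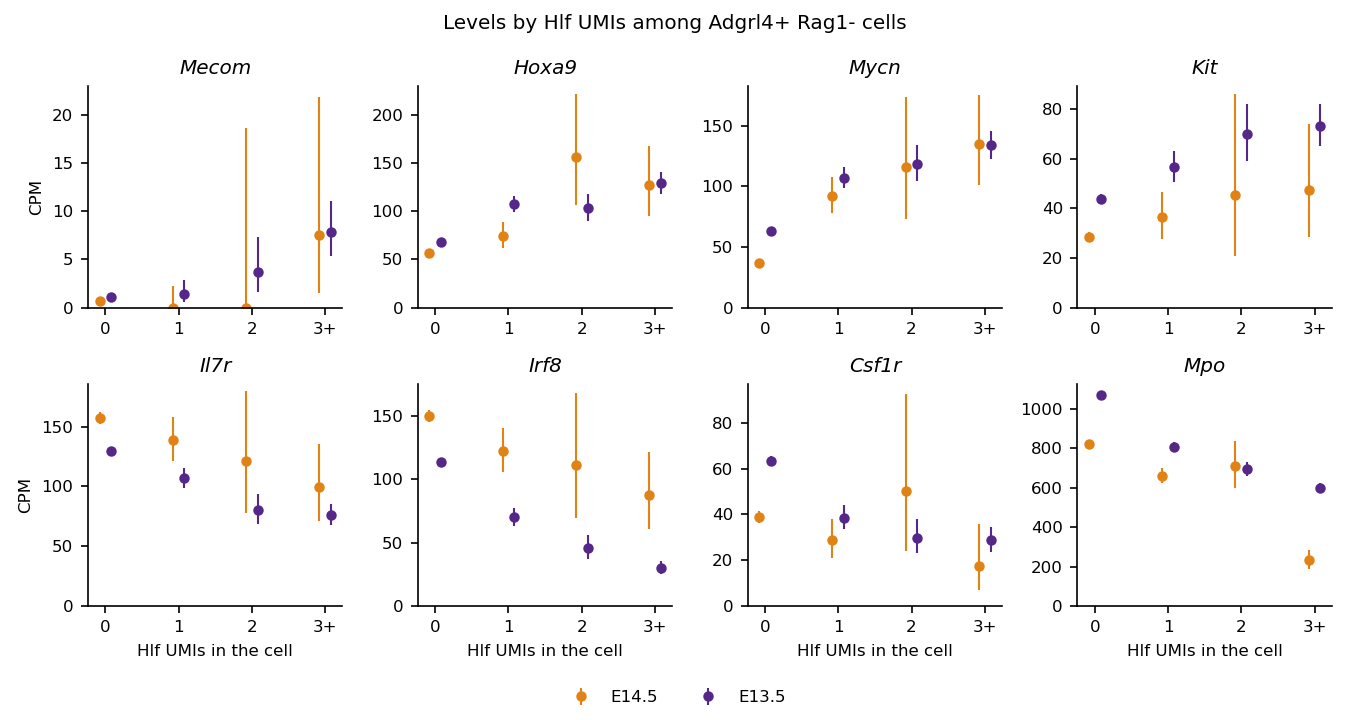
CPM of 8 genes (vertical axes, linear) by the number of Hlf UMIs in the cell (horizontal axis) among Adgrl4+ Rag1- cells, at E14.5 (orange) and E13.5 (purple), with exact 95% Poisson intervals. At E13.5 Mecom runs through 1.10, 1.44, 3.73 and 7.83 CPM and Irf8 through 113, 70.2, 45.8 and 29.8 CPM; the intervals at E14.5 are wide because the sets hold 7 and 16 cells at 2 and 3 or more UMIs.

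Cells with only 1 of the selecting genes differed from each other. Cells with Adgrl4 and no Hlf UMI had 64.5 CPM of Ctla2a at E14.5 and 126 CPM at E13.5, and cells with Hlf and no Adgrl4 UMI had 22.2 and 44.2 CPM, below the 146 and 318 CPM of the Hlf+ Adgrl4+ cells. Car2 had another order, with 78.6 CPM at E14.5 and 205 CPM at E13.5 in cells with Hlf alone and 32.3 and 57.6 CPM in cells with Adgrl4 alone. The 16 and 29 cells with a Rag1 UMI in addition to both selecting genes had 63.2 CPM of Ctla2a at E14.5 and 210 CPM at E13.5, and 320 and 30.0 CPM of Cd79a.

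Between the stages, 38 of 7810 genes (0.487%) were higher at E14.5 than at E13.5 past the fold in the Hlf+ Adgrl4+ cells and 13 (0.166%) were lower. In all other kept cells 1.37% were higher and 0.323% lower. The 10 genes with the highest folds belonged mainly to the B lineage and to mast cells and basophils. Igll1, a surrogate light chain gene, stood at 93.9 CPM (81.8 to 107) at E14.5, against 0.678 CPM (0.293 to 1.34) at E13.5 in the Hlf+ Adgrl4+ cells, a log2 fold of 4.14, and at 721 against 18.1 CPM in the other cells, a fold of 5.0. At E14.5, 28 of the 92 cells had an Igll1 UMI, and 5 cells held 76.2% of its 214 UMIs. Vpreb3 had a log2 fold of 3.28, Cd79a 3.07, Vpreb1, a surrogate light chain gene with the close copy Vpreb2, 2.97, and Ebf1 1.86. With marked doublets left out, the folds were 2.45 for Igll1, 2.10 for Vpreb3, 2.22 for Cd79a, 1.58 for Vpreb1 and 1.40 for Ebf1. B lineage genes summed to 542 CPM at E14.5 and 126 CPM at E13.5 in the Hlf+ Adgrl4+ cells and to 3135 and 366 CPM in all other kept cells, and the part of free RNA or doublets in these folds was not tested. Of the B lineage genes, 8 of 10 measured were higher at E14.5 and none lower, with a median of 1.77 in the Hlf+ Adgrl4+ cells and 3.04 in the other cells.

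Mcpt8, a basophil protease, had a log2 fold of 3.05 between the stages, and Cpa3, a mast cell carboxypeptidase, had 2.65. Their reads came from few cells, with 43 of 87 Mcpt8 UMIs (49.4%) and 64 of 100 Cpa3 UMIs (64.0%) in the highest cell at E14.5. Without each gene's highest cell in every set the folds were 2.35 and 1.60, and without marked doublets Mcpt8 had 2.42. Chchd10, a mitochondrial protein, had a log2 fold of 1.83 (1.17 without marked doublets), Trp53i11, a p53-induced membrane protein, had 1.73, and Arl5c had 1.61. All 10 of these genes were also higher at E14.5 in the other cells.

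Of the genes lower at E14.5, some were genes that the Hlf+ Adgrl4+ cells held above the other cells. Ctla2a had a log2 fold of -1.08 and Car2 -1.06 (-0.97 without marked doublets). In the other cells the folds between the stages were -1.22 for Ctla2a and -0.58 for Car2. Among cells with at least 2 UMIs of both selecting genes, 15 at E14.5 and 225 at E13.5, the fold was -0.43 for Ctla2a and -0.72 for Car2. Nfe2, a factor of megakaryocytic and erythroid genes, stood at 19.8 CPM at E14.5, against 49.7 CPM at E13.5. Its log2 fold was -1.13 (-1.07 at 2 or more UMIs of both selecting genes, as for the next values in brackets). Zfp503, a zinc finger repressor, had -1.41 (-1.56). Vamp5, a vesicle membrane protein, had -1.07 (-0.81), and Cebpd, a C/EBP factor, had -1.24 (-0.89), both short of the limit in that setting. Hbb-bt had -1.37 (-1.60), with its copy Hbb-bs unresolved. S100a8, a calgranulin, had -2.79 and Stfa1 had -2.50, but 398 of 425 S100a8 UMIs (93.6%) at E13.5 came from 1 cell. Without each gene's highest cell in every set these folds were -0.36 for S100a8 and -1.01 for Stfa1, and without marked doublets -0.41 and -0.99. Stem cell transcription factors had a median of -0.11 between the stages with none of 18 past the fold, stem cell receptors had -0.37 with 1 of 13 lower, and all 19 measured lymphoid priming genes lay above 0, with 3 past the fold and a median of 0.24. Irf8, with 115 CPM at E14.5 against 51.8 CPM at E13.5, was among these 3 with a log2 fold of 1.09, beside Ly6d (1.34) and Blnk (1.40).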

How the data were processed

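The deposited files hold gene counts per cell barcode, as UMI counts that the authors made with Cell Ranger 3 on the mm10 build, per the submitters' processing notes; per the file headers the software version was 3.0.0 for the fetal liver. The counts are not normalized. The 31053 gene features of the fetal liver include 30934 found in GENCODE M21. The fetal liver libraries were made with version 3 of the 10x 3' kit and the periphery with version 2, per the labels. Fetal liver barcodes numbered 12090 at E14.5 and 10783 at E13.5, of which 90 and 58 had too few genes and 298 and 84 too many mitochondrial UMIs.

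The Hlf+ Adgrl4+ cells and the gene lists were chosen with earlier results of these data known. UMIs were summed per library and set of cells, expressed as CPM with exact 95% Poisson intervals, and compared as log2 ratios after adding 5 CPM and taking off the median fold, which was 0.04 at E14.5 and 0.03 at E13.5 against all other kept cells. Genes at 10 CPM or more in either set were measured. With 1 library per group no test was possible. Intervals, including the Clopper-Pearson intervals of shares, cover counting error only and not the spread between cells or embryos. Genes named for their fold are those at 20 CPM or more on the higher side with the highest of the smaller folds of the stages, 15 higher and 10 lower against all other kept cells and 10 in each direction elsewhere, without mitochondrial, ribosomal and Gm or Rik genes; genes of the lists were named for their role. Cells were thinned to 10000 UMIs for shares. Doublets were marked with Scrublet at its automatic threshold and an expected rate that scales with the number of cells, and were kept. The fold script was tested on simulated data. Python 3.11.15, NumPy 2.4.6, SciPy 1.17.1, pandas 2.3.3, scanpy 1.11.5, R 4.3.3 and edgeR 4.0.16 (for TMM scaling factors, as an alternative) were used. Alternatives changed the filters, the rule, doublets, the added CPM, the minimum level, the scaling, the weight of cells and the depth of thinning. Leaving out each gene's highest cell in every set was added after seeing the data. Results for some genes are not reported here.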

Additional observations from a re-analysis of the deposited data

Results flagged for a closer look

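For 9 of 199 genes of the lists or named by their fold (4.52%), the Hlf+ Adgrl4+ cells lay above all other kept cells at one stage and below them at the other, with both counting intervals off 0. Over all 7542 genes measured at both stages this held for 104 (1.38%), and only those of the lists or named are given here. The difference between the stages was not tested, since each stage has 1 library. Nfil3, a bZIP repressor that innate lymphoid cells need, had a log2 fold of 0.36 at E14.5 and -1.15 at E13.5, with 57.1 CPM at E14.5 and 34.4 CPM at E13.5 in the Hlf+ Adgrl4+ cells, against 41.9 and 81.0 CPM in the other cells. Against Flt3+ Cd34+ progenitors, Nfil3 lay below 0 at both stages, with log2 folds of -0.28 at E14.5 and -1.25 at E13.5. That comparison is not given here for the other genes of this group. Mpo had 0.32 at E14.5 and -0.25 at E13.5. Notch1, the receptor of T lineage specification, had 0.41 and -0.28, and Satb1, a chromatin organiser of lymphoid progenitors, had 0.26 and -0.18. Kif23, a kinesin of cell division, had 0.36 at E14.5 and -0.14 at E13.5, Cd47, a signal against phagocytosis, had 0.16 and -0.15, and Fos, an immediate early factor, had 0.14 and -0.22. The opposite order was seen for Cebpd, with -0.57 at E14.5 and 0.25 at E13.5, and for Dusp1, a stress-induced phosphatase, with -0.20 and 0.22. Cells of the B lineage set were 43.8% of kept cells at E14.5 and 5.08% at E13.5, and their part in these values was not tested.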

How the results depend on the processing

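No alternative that leaves out a replicate could be made, since each group has 1 library. No paired analysis was possible because no group has replicates. The share of Hlf+ Adgrl4+ cells (0.786% at E14.5 and 4.57% at E13.5) became 0.128% and 2.11% at 2 or more UMIs of both genes, and 0.293% and 2.87% after thinning to 10000 UMIs. It became 6.15% at E13.5 with at most 5% mitochondrial UMIs. The 18 genes higher than in all other kept cells at both stages became 39 at 2 or more UMIs, 30 with 1 CPM added, 5 with 20 CPM added and 7 at a minimum of 50 CPM. The 52 lower genes became 16 with 20 CPM added, 11 at a minimum of 50 CPM and 91 with each cell weighed the same. The 27 genes that differed from Flt3+ Cd34+ progenitors became 85 at 2 or more UMIs, 53 with 1 CPM added, 5 with 20 CPM added, 10 at a minimum of 50 CPM and 41 with each cell weighed the same. The 51 genes that differed between the stages became 319 at 2 or more UMIs, where E14.5 has 15 cells, 101 with 1 CPM added, 15 with 20 CPM added and 16 at a minimum of 50 CPM. Higher additions and minimums leave fewer genes able to pass by their construction; the cause of the other shifts was not tested.

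Among list medians over all other kept cells, erythroid genes changed sign without a minimum level, to -0.028 at E14.5 and -0.00431 at E13.5, against 1.22 and 1.94 over the 3 measured genes. At a minimum of 50 CPM and E14.5, innate lymphoid and T lineage genes went to 0.28 and homing receptors and integrins to 0.11, with fewer genes measured. Immediate early and heat shock genes went to 0.013 at 2 or more UMIs and E14.5. Without marked doublets, 68 of the 70 genes past the fold against all other kept cells and 24 of the 27 against Flt3+ Cd34+ progenitors were kept, and without each gene's highest cell 69 and 27. Without the condition on Rag1, 59 of the 70 and 19 of the 27 were kept. No gene named by its fold changed the sign of that fold under any alternative run. Mecom rests on 3 UMIs in 92 cells at E14.5 and on 48 UMIs in 486 cells at E13.5.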
